A study of Mus musculus with 17 samples.

Results

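The 6 genes described here encode the conventional actins of the mouse: Acta1, Acta2, Actc1, Actg2, Actb and Actg1. They were taken by gene symbol, with earlier results of these data known, and make up 6 of the 28640 genes of the deposited expression table. RNA from 17 mouse heart samples was sequenced in 3 groups. The control group (n = 5) had no tumour, the tumour group (n = 6) carried a transplanted CT-26 tumour, and the tumour_swim group (n = 6) carried the tumour and swam as exercise. CT-26 cells come from a colon carcinoma of the mouse and grow as a graft in it. The series asks how swimming alters the effect of a growing tumour on the heart. No tumour-free group swam. Strain, sex, age, graft site and swimming schedule were not given in the sources used here. Separate animals are not stated by the labels either, so p-values speak of the spread among the 17 samples, which may be technical. Each library held 13.3 to 19.7 M assigned reads, as recovered from the table.

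Actins are globular proteins that bind ATP and join end to end into filaments. In heart muscle cells, filaments of alpha-cardiac actin (Actc1) and alpha-skeletal actin (Acta1) form the thin filaments on which myosin pulls. Acta1 is abundant in the fetal heart and is known in rodents to be raised again in overloaded hearts. Acta2, alpha-smooth muscle actin, builds the filaments of vascular smooth muscle and of myofibroblasts and is made transiently by the embryonic heart muscle. Actg2, gamma-smooth muscle actin, is best known from gut and bladder muscle. Actb and Actg1, the beta and gamma cytoplasmic actins, are made by nearly every cell. Many actin genes are transcribed under serum response factor, SRF, which binds a motif known as the CArG box and is held in check through its cofactors by the pool of unpolymerised actin.

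Because the 6 coding sequences are close copies, it matters whether reads could tell them apart. The first 60 coding bases of each gene are printed to show how the copies differ where they begin. Capitals mark bases that differ from Acta1 in a pairwise alignment, and the sequences are those of the GENCODE M21 transcripts on GRCm38.

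Acta1: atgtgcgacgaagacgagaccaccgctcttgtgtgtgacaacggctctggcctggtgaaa
Acta2: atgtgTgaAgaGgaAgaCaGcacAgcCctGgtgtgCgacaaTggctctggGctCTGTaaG
Actc1: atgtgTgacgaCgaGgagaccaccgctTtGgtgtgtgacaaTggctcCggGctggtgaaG
Actg2: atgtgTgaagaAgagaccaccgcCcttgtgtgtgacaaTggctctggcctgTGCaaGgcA
Actb: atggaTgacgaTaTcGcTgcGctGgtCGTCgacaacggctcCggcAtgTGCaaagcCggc
Actg1: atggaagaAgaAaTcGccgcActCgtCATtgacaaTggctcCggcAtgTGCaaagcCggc

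Within these 60 bases, 17 bases of Acta2, 9 of Actc1, 9 of Actg2, 17 of Actb and 16 of Actg1 differed from Acta1. Bases of Acta1 that are absent from Actg2, Actb and Actg1 were neither marked nor counted. The 60 bases of those genes therefore reach further along Acta1, and their counts are not on a par with the others. The proteins are 377 residues long for Acta1, Acta2 and Actc1, 376 for Actg2 and 375 for Actb and Actg1. Over the whole coding sequence the most alike pair was Actb and Actg1, at 88.7% identical bases, and Acta1 shared 86.2% with Actc1 and 85.4% with Acta2. The longest identical stretch between any of the genes was 77 bases, between Acta1 and Actb. No window of 100 bases of any of the 6 mRNAs occurred in another of the 6. Windows of 50 bases were shared with another actin for 2.004% of Acta1, 0.352% of Acta2, 2.57% of Actb and 1.94% of Actg1, and for none of Actc1 or Actg2. Read length and the treatment of reads with several matches were not given in the sources used here. Each value fell within 0.1 of a whole number of reads for all 102 values (6 genes in 17 libraries).

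**Figure D1:**
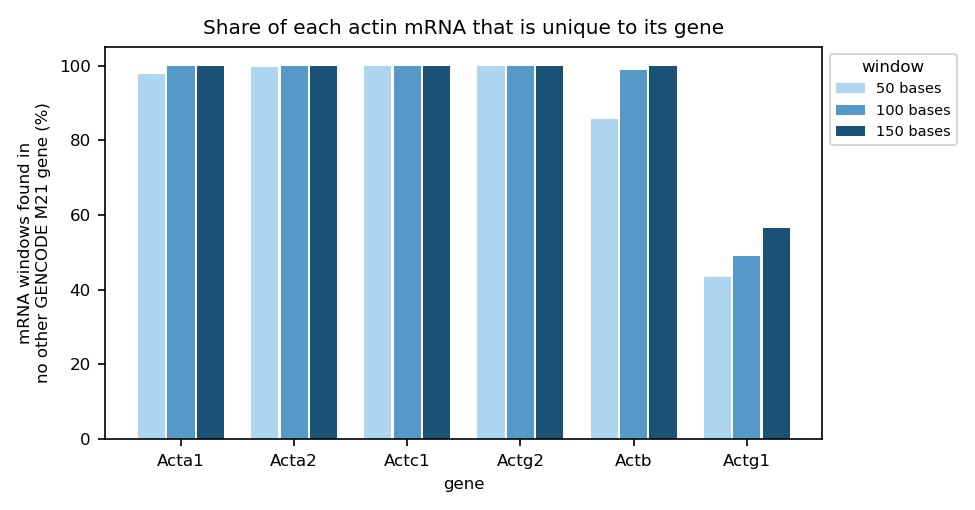
Share of the windows of each actin mRNA (vertical axis, percent) that occur in no other gene of GENCODE M21, for windows of 50, 100 and 150 bases (shades). The 4 muscle actins stand at 97.8% or more at every window length, Actb at 85.8% for 50 bases, and Actg1 at 43.3% to 56.5%.

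Actg1 stood apart in this respect. Windows of 100 bases from its mRNA occurred in other genes, processed pseudogenes among them, for 51.1% of their number, against 1.10% for Actb and none for the 4 muscle actins. The pseudogenes with the most shared windows were measured at low levels, with Gm12715 at 1.66 to 5.33 FPKM and Gm8399 at 0.247 to 1.01 FPKM. FPKM, the unit used throughout, counts reads for each kilobase of exon in every 1000000 assigned reads, which allows for exon length. Long genes were still low relative to short ones in some libraries, named below, so levels of genes of unlike length compare less well there. The level of Actg1 is also uncertain, since reads that match several places may have been dropped or counted for another gene.

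Acta1 (ENSMUSG00000031972) lies on the minus strand at chr8:123891769-123894751 of GRCm38, Acta2 (ENSMUSG00000035783) on the minus strand at chr19:34241090-34255590, and Actc1 (ENSMUSG00000068614) on the minus strand at chr2:114047282-114053548. Actg2 (ENSMUSG00000059430) lies on the minus strand at chr6:83512905-83536265, Actb (ENSMUSG00000029580) on the minus strand at chr5:142903115-142906754, and Actg1 (ENSMUSG00000062825) on the minus strand at chr11:120345690-120348542. The 6 genes thus lie on 6 chromosomes.

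In control hearts the actin transcripts were nearly all of the 2 sarcomeric kinds. Actc1 was measured at 2801 ± 468 FPKM (SD, n = 5) and Acta1 at 2386 ± 572 FPKM, and the ranges of these 2 genes overlapped. Acta2 followed at 197 ± 73.9 FPKM, Actb at 146 ± 58.9 FPKM and Actg1 at 89.3 ± 35.8 FPKM, each with a range that overlapped that of its neighbour in the order. Actg2 was lowest at 0.999 ± 0.652 FPKM, from 7 to 45 reads per library. Actc1 was the highest actin gene in 16 of the 17 libraries; the exception was control 2, where Acta1 was higher.

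Together the 6 genes took 0.926 ± 0.184% (SD, n = 5) of all assigned reads in control, 0.333 ± 0.0581% (n = 6) in tumour and 0.584 ± 0.261% (n = 6) in tumour_swim. Their summed level was 5620 ± 1093 FPKM, 1950 ± 390 FPKM and 3503 ± 1596 FPKM in the same order. Acta1 made up 42.2 ± 3.93% of that sum in control, 16.1 ± 8.50% in tumour and 27.8 ± 7.71% in tumour_swim. Actc1 made up 50.2 ± 4.55%, 72.5 ± 5.50% and 63.4 ± 6.47%. The actin pool of the tumour-bearing hearts was thus smaller on average, and Actc1 took a greater share of it.

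**Figure D2:**
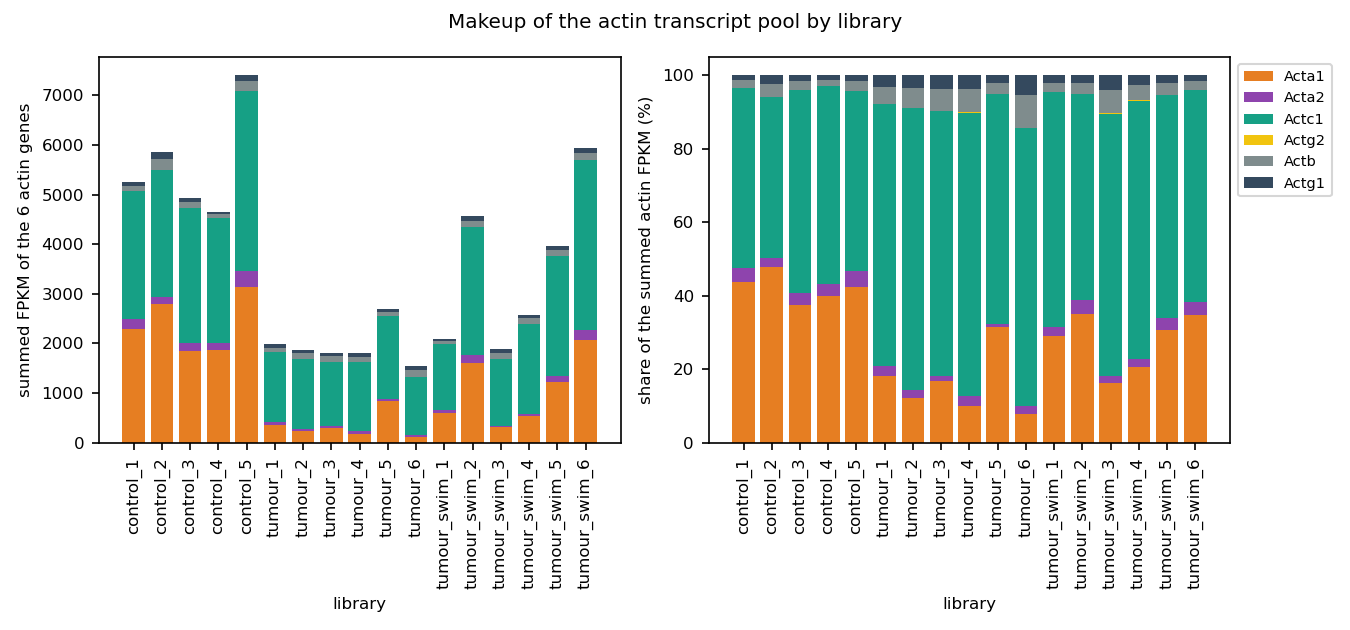
Makeup of the actin transcript pool in each of the 17 libraries (horizontal axis), as summed FPKM on the left and as a share of the sum in percent on the right, with 1 colour per gene. The summed level lies between 4658 and 7406 FPKM in control and between 1555 and 2693 FPKM in tumour, and tumour_swim spreads from 1888 to 5933 FPKM.

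The comparison of tumour with control asks what the graft does to the heart. Of the 6 genes, 3 muscle actins fell and the other 3 genes were not called. Acta1, the alpha-skeletal form, fell from a mean of 2386 to 340 FPKM, a ratio of means of 7.03. Acta2 fell from 197 to 38.5 FPKM, a ratio of 5.11, and Actc1 fell from 2801 to 1398 FPKM, a ratio of 2.003. In bulk tissue, fewer cells of a type and less RNA per cell cannot be told apart.

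Acta1 was measured at 2292, 2800, 1847, 1858 and 3134 FPKM in control 1 to 5. In the tumour group it ran from 119 FPKM in tumour 6 to 846 FPKM in tumour 5, with a median of 266 FPKM. All 6 tumour libraries lay below every control, and tumour 5 stood well above the other 5. The log2 fold change was -3.07 ± 0.48 (SE) with an adjusted p of 0.00103 (limma on log2(FPKM + 1), Benjamini-Hochberg over 13709 genes). It was the lowest log2 fold change of the 13709 genes tested, and stood between places 1 and 3 from the lowest under 12 other settings of scaling, filter, pseudocount and sample choice.

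Acta2, the smooth muscle form, was measured at 206, 137, 166, 153 and 321 FPKM in control 1 to 5. In the tumour group it ran from 24.6 to 55.1 FPKM, with a median of 37.99 FPKM. Again every tumour library lay below every control. Its log2 fold change was -2.31 ± 0.41 (SE, limma adjusted p = 0.00269), place 3 from the lowest of all genes tested. Under the other settings Acta2 stood between places 3 and 13, with place 11 at a pseudocount of 0.1.

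Actc1, the cardiac form, was measured at 2572, 2568, 2728, 2511 and 3627 FPKM in control 1 to 5. In the tumour group it ran from 1177 to 1683 FPKM, with a median of 1399 FPKM. The groups did not overlap, and both were tight apart from control 5. Its log2 fold change was -0.996 ± 0.217 (SE, limma adjusted p = 0.0109). Under quantile normalization, which gives every library the same distribution of values, it was -0.43 with an adjusted p of 0.2999.

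The cytoplasmic pair did not pass the test. Actb ran from 82.9 to 210 FPKM in control, with a median of 118 FPKM, and from 83.1 to 139 FPKM in tumour, with a median of 106 FPKM. Actg1 ran from 52.9 to 138 FPKM in control, with a median of 74.3 FPKM, and from 53.8 to 82.8 FPKM in tumour, with a median of 65.3 FPKM. For both genes the groups overlapped, with controls 2 and 5 highest. The log2 fold changes were -0.37 ± 0.28 for Actb (SE, limma adjusted p = 0.376) and -0.35 ± 0.23 for Actg1 (adjusted p = 0.316). Their 95% intervals, -0.95 to 0.21 and -0.83 to 0.13, take in falls of near 2-fold.

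Both cytoplasmic genes passed in the limma fit under 2 alternatives. With median-of-ratios scaling the changes were -0.57 (adjusted p = 0.0344) for Actb and -0.55 (adjusted p = 0.0391) for Actg1. Without the 3 libraries that stand apart they were -0.70 (adjusted p = 0.0232) and -0.68 (adjusted p = 0.0201). Those libraries are control 1, control 4 and tumour_swim 1, in which long genes, by summed exon length, were low relative to short ones. Exon length and the deviation from each gene's median over the libraries had Spearman correlations of -0.59, -0.61 and -0.57, under a limit of -0.5. Control 5 came next at -0.47. Tumour_swim 1 also had 46.3% of its reads on mitochondrial genes, against 16.9% in the lowest library. Without them the changes of Acta1, Acta2 and Actc1 were -3.18, -2.36 and -1.08, with adjusted p of 0.00300, 0.00493 and 0.00685, and 5.42% of all genes tested were called lower. With control 5 left out as well, a choice made after seeing the data that leaves 2 controls, the changes of Acta1, Acta2 and Actc1 were -3.03, -1.996 and -0.93, with adjusted p of 0.0153, 0.0284 and 0.0311, and Actb and Actg1 were not called (adjusted p of 0.0848 and 0.0610).

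Actg2 had 6 to 45 reads in every library. Its level was 0.999 ± 0.652 FPKM in control (SD, n = 5) and 0.836 ± 0.433 FPKM in tumour (n = 6), with overlapping ranges. On the log2 scale the difference was -0.09 ± 0.23 (SE, limma adjusted p = 0.811), with a 95% interval of -0.58 to 0.40.

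In all, 3 of the 6 actin genes were called lower, where 3.33% of all genes tested were called lower and 8.47% were called in either direction. That background rests on single libraries: the 1161 genes called became 542 (3.96%) without control 1 and 3666 (26.6%) without tumour_swim 1, and the 3 actin genes were called in both cases. The same 3 genes had groups that did not overlap, which held in the lower direction for 2.82% of all genes. The median log2 fold change was -0.68 over the 6 genes and 0.14 over all genes tested. Scaling by median-of-ratios brought the median of all genes to 0.00 and left the changes of Acta1, Acta2 and Actc1 called.

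**Figure D3:**
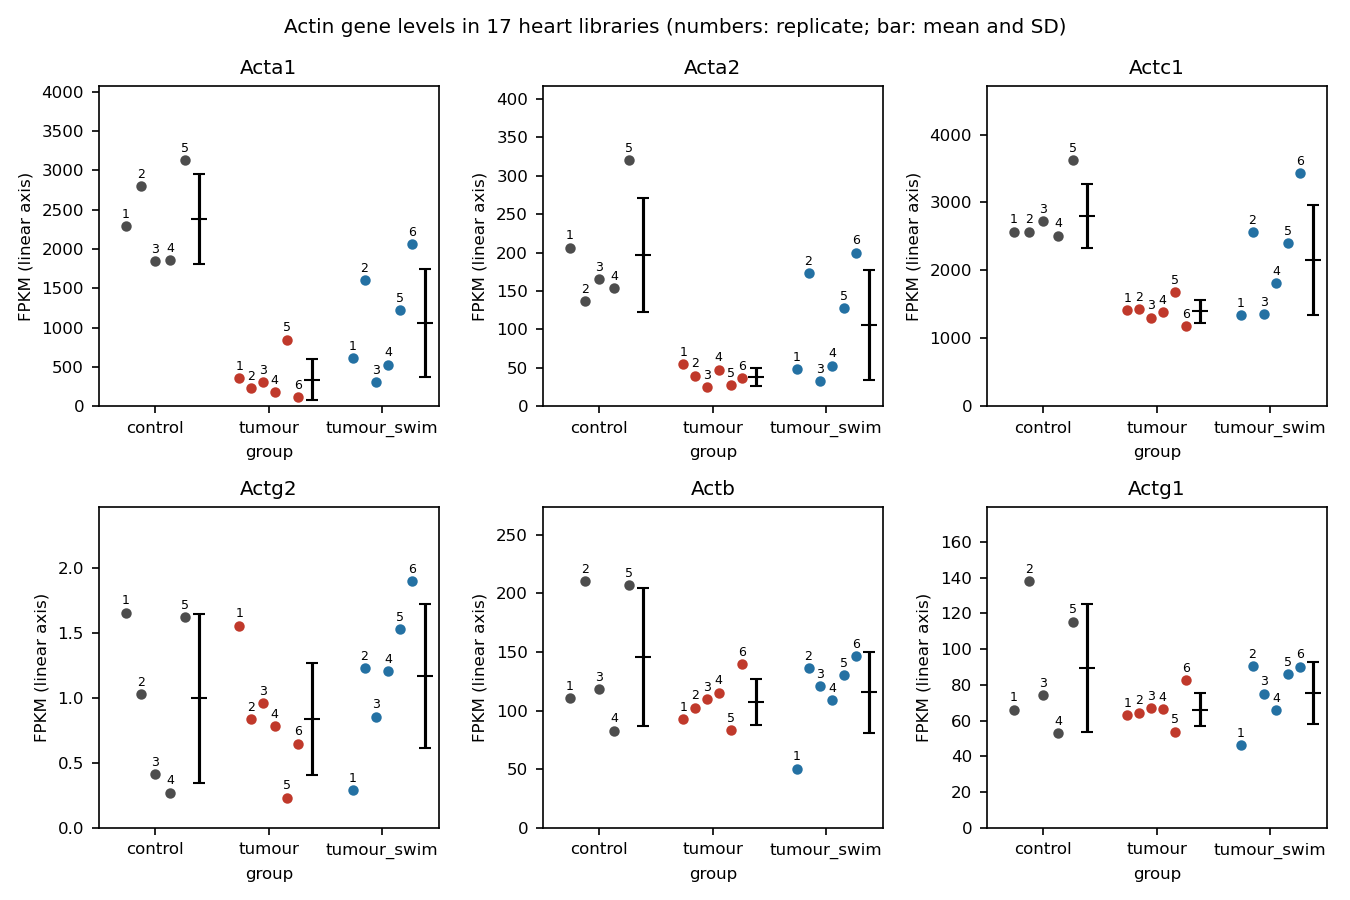
FPKM of each actin gene (vertical axes, linear, each from 0) in the 17 libraries by group; points carry the replicate number, and the bar beside each group gives the mean and SD. For Acta1, Acta2 and Actc1 the 6 tumour libraries lie below all 5 controls, and tumour_swim libraries 2, 5 and 6 lie above the other 3.

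The comparison of tumour_swim with tumour asks what swimming adds in tumour-bearing hearts. No actin gene was called, and limma called 0 of the 13709 genes (0%); 554 genes, or 4.04%, had an unadjusted p under 0.05. The tumour_swim group was broad for the 3 muscle actins that were low in tumour hearts. This comparison and the preceding one share the tumour libraries, so their values are given side by side and the opposite signs are not a separate result.

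Acta1 in tumour_swim 1 to 6 was measured at 607, 1604, 307, 531, 1223 and 2065 FPKM. Libraries 2, 5 and 6 lay above every tumour library, and the other 3 lay within the range of the tumour group. The log2 fold change from tumour was 1.63 ± 0.46 (SE, 95% interval 0.67 to 2.58), with an unadjusted limma p of 0.00217 and an adjusted p of 0.957. It was the highest of the 13709 log2 fold changes, and stood between places 1 and 8 from the highest under the other settings.

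Acta2 in tumour_swim 1 to 6 was measured at 48.3, 173, 33.0, 52.9, 128 and 200 FPKM. The same libraries 2, 5 and 6 lay above every tumour library, and the others lay within the tumour range. On the log2 scale the difference was 1.18 ± 0.39 (SE, 95% interval 0.37 to 1.99), with an unadjusted limma p of 0.00689 and an adjusted p of 0.957.

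Actc1 in tumour_swim 1 to 6 was measured at 1339, 2562, 1351, 1810, 2404 and 3431 FPKM. Libraries 2, 4, 5 and 6 lay above every tumour library, and libraries 2 and 6 lay within the control range. On the log2 scale the difference was 0.54 ± 0.21 (SE, 95% interval 0.11 to 0.98), with an unadjusted limma p of 0.0174 and an adjusted p of 0.957. With libraries weighted by their fit (array weights), the limma adjusted p of Acta1, Acta2 and Actc1 was 0.0697, 0.0848 and 0.0836. That fit stopped before convergence. It put 16.3% of all genes at an unadjusted limma p under 0.05, against 4.04% without weights, so p was lower across all genes. Without the 3 libraries that stand apart, their differences were 1.73, 1.34 and 0.66, with limma adjusted p of 0.312, 0.325 and 0.323.

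Of the remaining genes, Actb differed by 0.05 ± 0.26 on the log2 scale, Actg1 by 0.17 ± 0.22 and Actg2 by 0.23 ± 0.22 (SE, with limma adjusted p of 0.979, 0.957 and 0.957). Actb in tumour_swim ran from 50.3 to 146 FPKM, with a median of 126 FPKM, and Actg1 ran from 46.3 to 90.3 FPKM, with a median of 80.5 FPKM. For both, library 1 was the lowest, and it is one of the libraries that stand apart. Actg2 ran from 0.289 to 1.90 FPKM, with a median of 1.22 FPKM, again with library 1 lowest.

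Against control, no actin gene was called in tumour_swim, where 0.905% of all genes tested were called in either direction. Acta1 differed by -1.44 ± 0.48 on the log2 scale (SE, limma adjusted p = 0.195), Acta2 by -1.13 ± 0.41 (adjusted p = 0.245) and Actc1 by -0.45 ± 0.22 (adjusted p = 0.410). For Acta1, 5 of 6 tumour_swim libraries lay below every control, and for Acta2 and Actc1 4 of 6 did. Actb, Actg1 and Actg2 had log2 fold changes of -0.32, -0.18 and 0.14. That the 3 muscle actins passed in tumour and not in tumour_swim is not by itself a difference between those groups; the direct comparison is the one above.

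**Figure D4:**
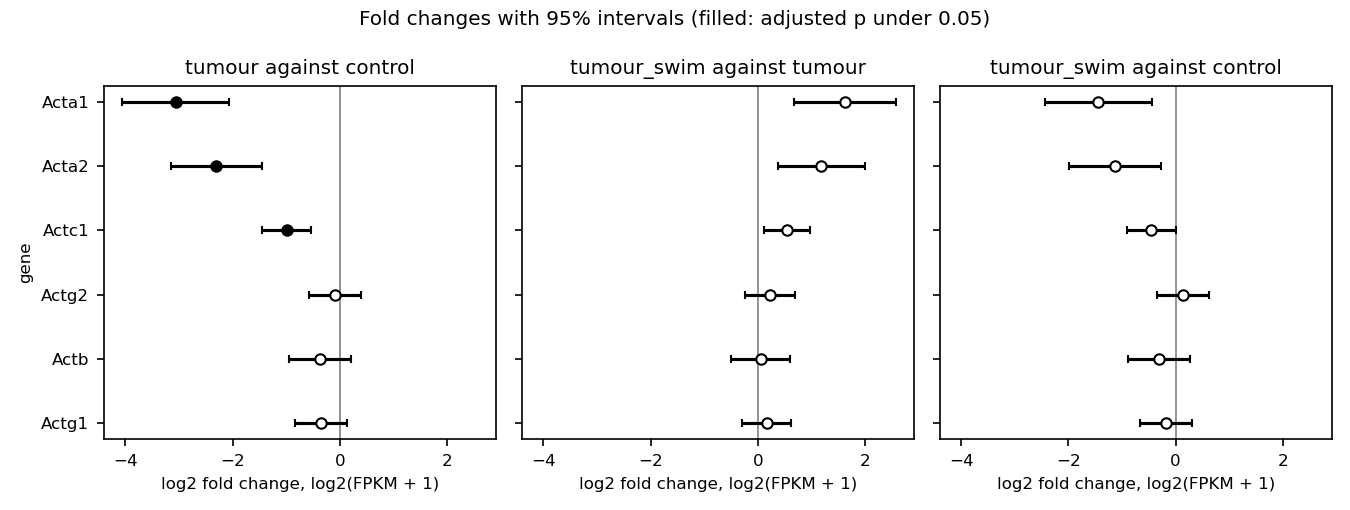
Log2 fold change of the 6 actin genes (horizontal axis, on log2(FPKM + 1)) in the 3 comparisons, with 95% intervals from limma; filled points have an adjusted p under 0.05. Filled points occur for Acta1, Acta2 and Actc1 in tumour against control, at -3.07, -2.31 and -0.996, and nowhere else.

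The balance of the 2 sarcomeric actins was then set out within each library, which removes any scaling of the library as a whole. The level of Acta1 over that of Actc1 was 0.853 ± 0.159 in control (SD, n = 5), 0.230 ± 0.146 in tumour (n = 6) and 0.452 ± 0.162 in tumour_swim (n = 6). Every tumour and every tumour_swim library lay below every control. The log2 ratio in tumour differed from that in control by -2.08 (two-sided exact permutation p = 0.00433, adjusted over 9 ratio tests p = 0.0195). In tumour_swim it differed from control by -0.99 (exact permutation p = 0.00649, adjusted p = 0.0195), but without the 3 libraries that stand apart, the difference of -1.04 had an adjusted p of 0.129.

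The ratio in tumour_swim exceeded that in tumour by 1.09 on the log2 scale (exact permutation p = 0.0281, adjusted p = 0.0506). Leaving out tumour 5 gave 1.35 with an adjusted p of 0.0244, and leaving out tumour_swim 3 gave 1.27 with an adjusted p of 0.0234, so the side of the threshold rested on single libraries.

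Acta2 was likewise set against Myh11, the myosin heavy chain of smooth muscle. The level of Acta2 over that of Myh11 ran from 14.3 to 149 in control, with a median of 31.7, from 2.88 to 6.47 in tumour, with a median of 3.64, and from 4.47 to 272 in tumour_swim, with a median of 15.7. The tumour group lay below every control. The log2 ratio differed by -3.29 between tumour and control (exact permutation p = 0.00216, the smallest this design can give; adjusted p = 0.0195).

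Between tumour_swim and tumour the log2 ratio of Acta2 to Myh11 differed by 2.20 (exact permutation p = 0.00866, adjusted p = 0.0195). Without tumour 3, tumour 4 or tumour 6 that difference was 2.14, 2.16 or 2.11 with an adjusted p of 0.0536, 0.0536 or 0.0584, and without tumour_swim 1 it was 1.41 with an adjusted p of 0.0292. Between tumour_swim and control the difference was -1.09 (exact permutation p = 0.342, adjusted p = 0.385). Without the 3 libraries that stand apart, the differences from control to tumour and from tumour to tumour_swim were -2.48 and 1.41, each with an adjusted p of 0.0390. Myh11 is a long gene, and long genes were low in those 3 libraries.

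The cytoplasmic actins kept a narrow ratio. Actb over Actg1 was 1.63 ± 0.108 in control (SD, n = 5), 1.61 ± 0.0961 in tumour (n = 6) and 1.5001 ± 0.212 in tumour_swim (n = 6). The log2 ratio differed by -0.02, -0.12 and -0.13 in tumour from control, tumour_swim from tumour and tumour_swim from control (exact permutation p of 0.766, 0.299 and 0.284). The ranges overlapped in all 3 groups, and tumour_swim 1 lay lowest of all libraries.

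**Figure D5:**
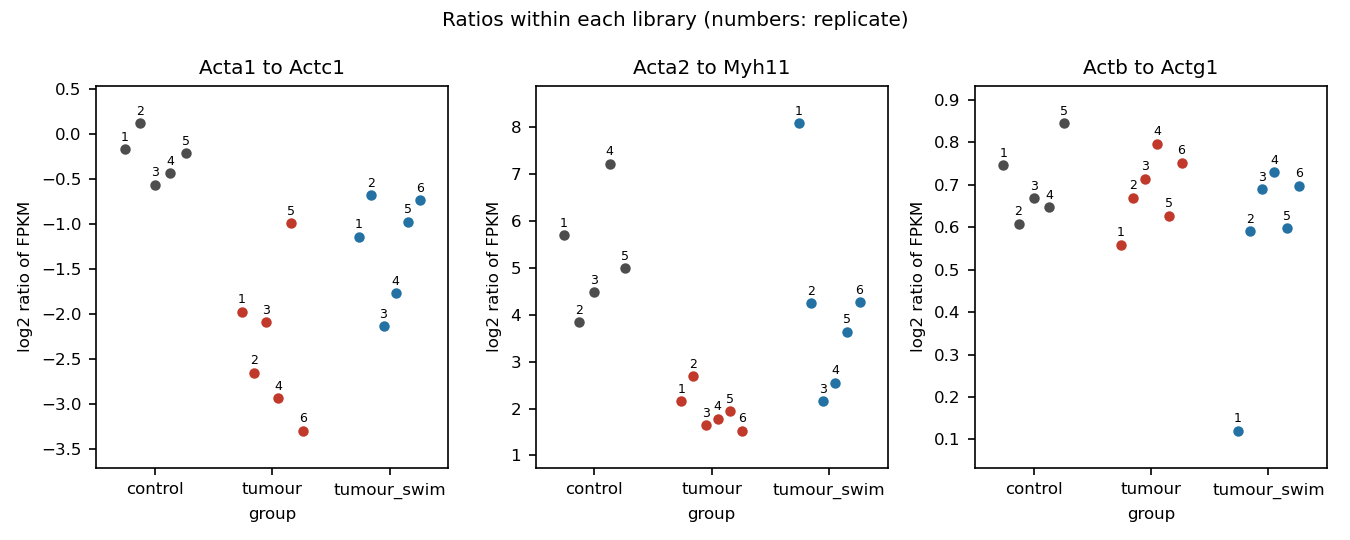
Log2 ratio of FPKM within each library (vertical axes, log2 scale) for Acta1 to Actc1, Acta2 to Myh11 and Actb to Actg1, by group; points carry the replicate number. The first ratio is below all controls in every tumour and tumour_swim library, the second is below all controls in every tumour library, and the third overlaps between groups apart from tumour_swim 1 at 0.12.

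The markers of the cells that make each actin were read beside these changes. Of 16 smooth muscle and pericyte markers, 15 were tested and none was called in tumour against control, where 8.47% of all genes tested were. The median log2 fold change of the 15 was 0.19, against 0.14 over all genes tested. The summed level of the 16 ran from 588 to 1118 FPKM in control, 913 to 1062 FPKM in tumour and 742 to 990 FPKM in tumour_swim. Des held the greatest part of that sum, at 471, 560 and 554 FPKM on average in the same order. Rgs5 came next, at 196, 216 and 175 FPKM, so the sum says little of the other markers. The smallest p of the list was that of Abcc9, a potassium channel subunit of pericytes and muscle, at 42.9 ± 26.7 FPKM in control and 67.3 ± 9.14 FPKM in tumour (log2 fold change 0.87, limma adjusted p = 0.203). Of the 15 log2 fold changes, 6 were below 0 and 9 above 0. Myh11 was at 6.42, 9.99 and 7.73 FPKM on average in control, tumour and tumour_swim. Cnn1, the smooth muscle calponin, was at 1.28, 1.20 and 1.33 FPKM in the same order. Myl9 and Smtn were lower on average in tumour, at 52.1, 33.0 and 50.3 FPKM and at 26.1, 16.9 and 20.3 FPKM. Tagln, a smooth muscle protein named here after its values were seen, did not exceed 0.527 FPKM in any library, where Acta2 was measured at 24.6 FPKM or more.

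Skeletal muscle markers were checked because Acta1 is the main actin of skeletal muscle. Of 9 markers, 8 were in the table, 4 were tested and 1 was called in tumour against control, where 8.47% of all genes tested were. Myh1 was at 0 in 12 libraries, Myh2 at 0 in 15, and Mylpf did not exceed 1.44 FPKM. The exception was Myl1, an essential light chain of fast skeletal myosin, which fell from 66.4 ± 31.3 to 20.8 ± 5.91 FPKM in tumour (log2 fold change -1.54, limma adjusted p = 0.0108). The summed level of the list ran from 36.7 to 108 FPKM in control from 17.7 to 33.4 FPKM in tumour and from 18.6 to 60.6 FPKM in tumour_swim, and most of it was Myl1. None of 3 atrial markers tested and none of 6 cardiomyocyte markers was called, against the same share of all genes. The lowest limma adjusted p among the cardiomyocyte markers was 0.0560 for Myl2, the ventricular regulatory light chain, which was lower in tumour. Of the 6 log2 fold changes, 2 were below 0 and 4 above 0.

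Markers of some other cells were higher in tumour. Of 11 fibroblast and myofibroblast markers, 5 were called higher, where 5.14% of all genes were; Dcn, a matrix proteoglycan, rose from 142 ± 14.5 to 297 ± 61.9 FPKM, and the median log2 fold change of the list was 0.88. The 11 summed to between 237 and 367 FPKM in control, 358 and 774 FPKM in tumour and 189 and 584 FPKM in tumour_swim. Acta2, which marks activated fibroblasts, was lower in the same tumour libraries. Of 8 macrophage markers 3 were called higher, as were 4 of 5 neutrophil and 3 of 5 red cell markers tested, and none of 8 endothelial markers was called. Single libraries decided some of these calls. On leaving out 1 library, the count called higher ran from 2 to 5 for fibroblast markers and 2 to 4 for macrophage markers. It ran from 3 to 5 for neutrophil and 1 to 4 for red cell markers, and the share of all genes from 2.30% to 19.2%. Csf1r, the receptor of a macrophage growth factor, lost its call on leaving out any 1 of 14 libraries, and Pdgfra, a receptor of fibroblasts, and Mmp9, a protease of neutrophils, on leaving out any 1 of 6, with adjusted p of 0.147, 0.106 and 0.101 without control 4. Without control 1 the globin genes Hba-a1 and Hbb-bs were at an adjusted p of 0.0513 and 0.0508, which left 1 red cell marker called. In the order named, the medians of the macrophage, neutrophil, red cell and endothelial lists were 0.54, 0.89, 1.145 and 0.09 on the log2 scale. No marker list had a call in tumour_swim against tumour, where 0% of all genes were called. Against control, 2 neutrophil and 3 red cell markers were called higher in tumour_swim, where 0.554% of all genes were. There Hba-a1 lost its call on leaving out any 1 of 6 libraries and Hbb-bs any 1 of 12, with adjusted p of 0.0751 and 0.0972 without control 1. The part of these cells in the actin results was not tested.

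Of 20 sarcomere genes, the partners of actin in the filaments, 4 were called lower and 2 higher in tumour against control, where 3.33% and 5.14% of all genes were, with a median log2 fold change of 0.0029. On leaving out single libraries, the count called lower ran from 1 to 6, and the share of all genes from 1.53% to 7.43%. The count called higher ran from 1 to 2, and the share of all genes from 2.30% to 19.2%. Without the 3 libraries that stand apart, 2 were called lower and 2 higher, where 5.42% and 7.12% of all genes were. Myh7, the slow beta myosin heavy chain, rose from 40.2 ± 20.9 to 172 ± 108 FPKM (log2 fold change 2.06, limma adjusted p = 0.00881), and Myom2, a protein of the M band, rose from 79.9 ± 37.2 to 196 ± 40.04 FPKM (1.42, adjusted p = 0.0229). Leaving out control 1, control 4, tumour 3 or tumour 4 brought the adjusted p of Myom2 to between 0.0509 and 0.0718. The genes called lower were Tnnc1, the calcium-binding troponin, with Tpm1, Csrp3 and Myl3, the last 3 named after their values were seen. Tnnc1 fell by 0.88 on the log2 scale with an adjusted p of 0.0483, which exceeded 0.05 on leaving out any 1 of 14 libraries, reaching 0.145 without control 4, and was 0.751 without the 3 libraries that stand apart and control 5. None of the 20 was called in tumour_swim against tumour, where 0% of all genes were, or against control, where 0.905% were.

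Genes that handle actin protein were called at about the share of all genes or below it. Of 29 genes for monomer binding and filament assembly, 1 was called, Tmsb10, a thymosin that sequesters actin monomers, which fell from 27.8 ± 11.5 to 9.95 ± 3.02 FPKM (log2 fold change -1.33, limma adjusted p = 0.0109). Of 15 genes of the chaperonin and prefoldin that fold actin, 1 was called, Cct3, at 18.2 ± 2.42 and 11.97 ± 1.32 FPKM (-0.56, adjusted p = 0.0199). The call of Cct3 was lost without control 1, control 5 or tumour 3, with adjusted p of 0.0607, 0.0524 and 0.0516. Of 7 enzymes that modify actin none was called, the lowest adjusted p being 0.0751 for Msrb1, a reductase of oxidised actin methionines. The median log2 fold changes of these 3 lists were 0.02, -0.20 and -0.02, against 0.14 over all genes tested, and 8.47% of all genes were called.

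Of 15 regulators of actin transcription 2 were called, and of 16 other targets of SRF 1 was, where 8.47% of all genes were. Fhl2, a LIM protein that binds SRF, fell from 1131 ± 255 to 622 ± 70.2 FPKM (log2 fold change -0.84, limma adjusted p = 0.00904). Hopx, which restrains SRF, fell from 115 ± 33.0 to 69.1 ± 8.90 FPKM (-0.68, adjusted p = 0.0200); this call was lost without control 1 or control 4, with adjusted p of 0.0695 and 0.0668. The SRF target called was Pdlim7, a PDZ and LIM protein, which fell from 10.6 ± 1.94 to 5.19 ± 0.878 FPKM (-0.90, adjusted p = 0.00119). The median log2 fold change was 0.19 over the 15 regulators and -0.0097 over the 16 targets. In tumour_swim none of these lists had a call in either comparison, where 0% of all genes were called against tumour and 0.905% against control. Nkx2-5, a cardiac homeobox factor, was at 33.6 ± 7.80 FPKM in tumour and 48.0 ± 5.52 FPKM in tumour_swim (0.52, unadjusted p = 0.00522, limma adjusted p = 0.957).

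The promoters of the 3 genes that fell together are printed because SRF acts through the CArG box. The sequences are the 250 bases before the annotated start, on the minus strand, from RefSeq on GRCm38.p6, with strict CArG boxes in capitals.

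Acta1 promoter, chr8:123894776-123895025: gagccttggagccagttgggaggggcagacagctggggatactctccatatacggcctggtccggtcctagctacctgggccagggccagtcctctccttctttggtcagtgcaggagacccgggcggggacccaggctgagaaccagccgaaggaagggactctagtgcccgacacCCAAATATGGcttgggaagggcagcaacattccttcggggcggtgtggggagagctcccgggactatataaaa
Actc1 promoter, chr2:114052876-114053125: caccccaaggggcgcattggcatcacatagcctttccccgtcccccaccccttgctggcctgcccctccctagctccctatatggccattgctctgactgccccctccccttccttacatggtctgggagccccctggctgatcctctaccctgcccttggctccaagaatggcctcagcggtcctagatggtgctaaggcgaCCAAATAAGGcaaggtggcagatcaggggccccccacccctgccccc
Acta2 promoter, chr19:34255374-34255623: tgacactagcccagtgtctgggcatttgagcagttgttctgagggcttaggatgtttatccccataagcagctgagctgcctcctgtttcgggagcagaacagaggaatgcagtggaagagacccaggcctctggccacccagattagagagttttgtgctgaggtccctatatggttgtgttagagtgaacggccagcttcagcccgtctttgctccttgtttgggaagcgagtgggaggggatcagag

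Both strands were searched from 250 bases before to 50 bases after the start. The strict CArG box (CC, then 6 bases of A or T, then GG) was found in 1.63% of 32851 mouse promoters. It occurred once in the promoters of Acta1, at position -73, and Actc1, at position -47, and once in that of Actg1, which was not called, at position -90. No strict box was in the Acta2 window. The search allowed no mismatch. Stretches near the pattern, such as ccctatatgg in the Acta2 and Actc1 sequences above, were therefore not counted. Actb and Actg2 were not searched. The motif CATTCC, to which TEAD factors bind, was found in 14.7% of promoters and occurred once in Acta1, at -46, and once in Acta2, at -146. The motif TATAAA was found in 13.6% of promoters, at -7 in Acta1 and at 33 bases after the start in Actc1. These matches describe the sequence and do not show binding.

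Across the libraries Acta1, Acta2 and Actc1 were alike, with Pearson correlations of log2 values of 0.86, 0.93 and 0.94 between them, as were Actb and Actg1. Acta1 was less like Actb (0.33), Actg1 (0.40) and Actg2 (0.24). Among the 11386 genes whose mean reached 1 FPKM, the gene most alike to Acta1 by Pearson correlation of log2 values over the 17 libraries was Actc1 (r = 0.93), and so it was for Acta2 (r = 0.94). With the group means removed these values were 0.81 and 0.84, and the value between Acta1 and Acta2 went from 0.86 to 0.58. For Actb the most alike was Actg1 (r = 0.96, and 0.96 with the group means removed), although reads of Actg1 may be lost to its pseudogenes. The libraries share their depth and makeup, so these correlations are a description.

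The genes next most alike to Acta1 were Fbxl22, Mrpl19, Mhrt and Rtn4r. Rtn4r, the Nogo receptor, was at 11.4 FPKM in control, 1.41 FPKM in tumour and 3.30 FPKM in tumour_swim, and it was also among the 5 most alike to Acta2, with Mtfr1l, Supv3l1 and Sh3kbp1. Fbxl22, an F-box protein of the cardiac Z-disc, was at 40.5, 13.5 and 28.2 FPKM in the same order. Mhrt overlaps the cardiac myosin genes on the other strand, and whether reads were counted by strand is not given, so its value is uncertain. For Actc1 the list was Sh3kbp1, Mmachc, Mtfr1l, Acta2 and Acta1. For Actb it went on with Efhd1, Sparc, Tnfaip2 and Fscn1, an actin-bundling protein, and for Actg1 with Efhd1, Ncs1, Pigq and Itga9. The 5 genes most alike to Actg2 reached r = 0.70 to 0.76 and were Vipas39, Mfap4, Tpm2, Plekhb1 and Hcls1, at the low counts of that gene.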

How the data were processed

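RNA from 17 mouse heart samples was made into libraries with a NEBNext Ultra kit from TRIzol-extracted total RNA, per the labels' protocols. Per the submitters' processing notes, fastp, FastQC, bcl2fastq and the build mm10 were used in roles not stated; aligner, counting, annotation and strand were not given in the sources used here. A table deposited by the authors holds 28640 genes in FPKM, a unit inferred from the values: times GENCODE M21 exon length, each column came to 99.0% to 99.7% of what FPKM gives. Of the gene IDs, 98.7% matched GENCODE M21. Deposited positions differed from GRCm38 for 27654 matched IDs, and those printed come from GENCODE M21. Depth, recovered from the step of 1 read, was 13.3 to 19.7 M reads per library.

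Values were tested as log2(FPKM + 1) of the deposited values with limma 3.58.1 (R 4.3.3, limma-trend, two-sided, group as factor, 14 residual degrees of freedom) over 13709 genes whose mean reached 0.5 FPKM in a group, adjusted by Benjamini-Hochberg per comparison at 0.05. All 6 actin genes passed that filter. Log2 fold changes on this scale understate those of low genes. Ratios within libraries went through two-sided exact permutation tests (scipy 1.17.1), adjusted over 9. Sequence windows and promoters were searched in Python 3.11.15.

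The members, the 15 gene lists and the tests were chosen with earlier results of these data known. Named genes are the 6 actins, up to 3 called members per list and comparison with the greatest change or else the member with the smallest p, and the 5 genes most alike to each actin. Myh11, Cnn1, Tagln, Des, Myl9, Smtn, Myh1, Myh2, Mylpf, Tpm1, Csrp3, Myl3 and the pseudogenes were named outside that rule, after their values were seen. Not every gene the rule takes is printed. The limma step was tested on simulated data, with 200 changes planted per comparison. Of 4-fold changes it recovered 94.2%, 96.6% and 97.0% in tumour against control, tumour_swim against tumour and tumour_swim against control. In the same order, it recovered 57.7%, 63.7% and 66.0% of 2-fold changes, over 13464, 13454 and 13454 genes. Changes were planted only in genes far above the level of Actg2. Deviations were shuffled gene by gene, which removes shifts that a library shares across genes. These shares may therefore not hold for low genes or for the real libraries. Alternatives covered scaling, filter, pseudocount, weighting, pairing, mitochondrial genes, a length trend and leaving out libraries.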

Additional observations from a re-analysis of the deposited data

Results flagged for a closer look

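Of 27 groups of values examined for a library far from the others by Dixon's gap criterion, 4 had one; chance flags about 1 in 20 groups. Acta1 in tumour 5 was 846 FPKM, apart from the other 5 tumour libraries. Actc1 in control 5 was 3627 FPKM, apart from the other 4 controls. The log2 ratio of Acta2 to Myh11 in tumour_swim 1 was 8.09, the highest of its group. The log2 ratio of Actb to Actg1 in tumour_swim 1 was 0.12, the lowest of its group. Tumour_swim 1 is one of the 3 libraries with a correlation of deviation with exon length under -0.5, control 5 being next at -0.47. The part of this in the ratios of tumour_swim 1 was not tested.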

How the results depend on the processing

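Under 12 alternatives, the falls of Acta1 (-3.27 to -2.68, adjusted p up to 0.0153) and Acta2 (-2.51 to -1.996, up to 0.0284) in tumour against control kept their direction and call. Exceptions among the 6 genes in that comparison were Actc1 under quantile normalization (-0.43, not called), Actg2 with the length trend removed (0.0158, reversed) and without the 3 libraries that stand apart and control 5 (0.0843, reversed; this setting was chosen after seeing the data and not run for the ratios), and Actb and Actg1, which were called with median-of-ratios scaling (-0.57 and -0.55) and without the 3 libraries that stand apart (-0.70 and -0.68). Actc1 in tumour_swim against control reversed under quantile normalization (0.0296). The difference of -1.04 in the log2 ratio of Acta1 to Actc1 between tumour_swim and control was not called without those 3 libraries. Of 26 calls of list genes named in the text or taken by its rule, 12 were lost in the setting with 2 controls, among them Myh7, Myl1, Tmsb10, Cct3, Fhl2 and Hopx. The cause was not tested.

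The number of genes called in tumour against control, 1161, became 1945 with median-of-ratios scaling, 2092 with quantile normalization, 1940 without mitochondrial genes, 2380 with the length trend removed and 2124 with only the 2 groups compared. In tumour_swim against tumour, 0 became 1 without a filter, 45 with array weights (a fit that stopped before convergence) 1 without the 3 libraries and 2 also without control 5. In tumour_swim against control, 124 became 366, 373, 261 and 512 under the first 4 settings, 515 with array weights, 352 without the 3 libraries, 224 also without control 5, 78 without a filter and 48 with only the 2 groups compared.

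Leaving out single libraries, the fall from control to tumour ranged from -3.39 to -2.82 for Acta1, -2.42 to -2.12 for Acta2 and -1.05 to -0.90 for Actc1, all called. Changes near 0 ran through it: Actg2 in tumour against control from -0.24 to 0.0294 and in tumour_swim against control from -0.00812 to 0.28, Actb in tumour_swim against tumour from -0.0307 to 0.27, and the log2 ratio of Actb to Actg1 in tumour against control from -0.0403 to 0.0190. The ratio of Acta1 to Actc1 in tumour_swim against tumour ran from 0.89 to 1.35, and that of Acta2 to Myh11 from 1.41 to 2.60. Genes called in tumour against control ran from 542 to 3666, with 542 and 565 on leaving out control 1 and 4, 572, 622 and 692 on leaving out tumour 3, 4 and 6, and 3666 on leaving out tumour_swim 1. In tumour_swim against control they ran from 55 to 2208, with 68, 72 and 65 on leaving out control 1, 4 and 5, and 2208, 79, 55, 75 and 78 on leaving out tumour_swim 1, 2, 3, 4 and 6.

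With the replicate number as a block, 861, 0 and 84 genes were called, and Acta1, Acta2 and Actc1 changed by -3.07, -2.43 and -1.05 in tumour against control. Samples with the same number did not deviate together in every case (correlations from -0.67 to 0.68), so the numbers were not taken as a pairing.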
